A study of Mus musculus with 16 samples.

Results

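The genes described here are 9 that mark or drive the exchange of E-cadherin for N-cadherin and the epithelial to mesenchymal transition: Cdh1, Cdh2, Epcam, Snai1, Snai2, Zeb1, Zeb2, Twist1 and Grhl2. They were taken by name from the expression table of a mouse embryonic stem (ES) cell series, in which they filled 10 of 27807 rows because Zeb1 has 2 identifiers. Of these rows, 9 reached the mean of 10 normalised counts needed for testing, and the other was 1 of the Zeb1 rows. Poly-A RNA was sequenced from 2 libraries for each of 2 genotypes at 4 stages, 16 libraries in all. WT cells were Taf4+/+ and KO cells were Taf4-/-, homozygous for an allele of Taf4a that lacks internal exons. Taf4a encodes a subunit of TFIID, the complex that recruits RNA polymerase II to core promoters. All lines were derived from blastocysts of crosses between Taf4a+/- mice, and the design lists 2 independent lines per genotype without tying a line to a replicate number. ES cells were grown with leukaemia inhibitory factor (LIF) on inactivated mouse embryonic fibroblast feeders. EB4 cells were embryoid bodies taken before retinoic acid was added, EB5 cells had received retinoic acid for a day, and EB8 cells had been exposed to it for longer and are labelled as neural precursors. Both genotypes went through the same steps, and no other allele or agent was named for either.

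E-cadherin (Cdh1) holds epithelial cells and ES cells together through calcium-dependent homophilic contacts, and N-cadherin (Cdh2) does the same in neuroepithelium and many mesenchymal cells. Epcam is a second epithelial adhesion molecule, abundant in pluripotent cells. Snai1, Snai2, Zeb1, Zeb2 and Twist1 are transcription factors best known for lowering Cdh1 during the epithelial to mesenchymal transition, and Grhl2 is a factor that sustains Cdh1 and other epithelial junction genes. In the early embryo the cadherins are exchanged when the epiblast gives rise to mesoderm and again when ectoderm becomes neural plate.

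Snail and Zeb proteins bind the E-box letters CACCTG, or CAGGTG when read on the other strand. Start-site windows from RefSeq on GRCm38.p6, running from 250 bases before to 50 bases after a start, were matched for 4 of the 9 genes (Epcam, Snai1, Zeb2 and Twist1). The Epcam, Snai1 and most upstream Zeb2 windows are printed because, of the 4 genes matched, Epcam fell from ES to EB8, Zeb2 rose most and Snai1 was not called. Capitals mark every CANNTG, the general E-box pattern of which CACCTG and CAGGTG are 2 forms. The general pattern reads the same on the opposite strand, and its 2 forms read as each other, so both strands were searched; matches of the forms are also matches of the general pattern.

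Epcam, chr17:87635729-87636028, plus strand: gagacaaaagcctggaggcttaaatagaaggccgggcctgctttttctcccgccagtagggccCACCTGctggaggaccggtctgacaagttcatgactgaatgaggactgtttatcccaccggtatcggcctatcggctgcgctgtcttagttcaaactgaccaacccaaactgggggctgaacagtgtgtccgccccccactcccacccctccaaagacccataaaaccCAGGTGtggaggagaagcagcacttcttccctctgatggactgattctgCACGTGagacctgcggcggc

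Snai1, chr2:167537945-167538244, plus strand: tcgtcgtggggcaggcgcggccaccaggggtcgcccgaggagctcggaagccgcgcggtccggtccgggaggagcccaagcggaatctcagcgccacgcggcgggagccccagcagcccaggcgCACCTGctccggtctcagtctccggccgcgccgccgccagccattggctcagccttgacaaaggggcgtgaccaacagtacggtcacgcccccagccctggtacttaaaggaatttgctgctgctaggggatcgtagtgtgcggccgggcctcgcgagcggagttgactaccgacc

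Zeb2, chr2:45117393-45117692, minus strand: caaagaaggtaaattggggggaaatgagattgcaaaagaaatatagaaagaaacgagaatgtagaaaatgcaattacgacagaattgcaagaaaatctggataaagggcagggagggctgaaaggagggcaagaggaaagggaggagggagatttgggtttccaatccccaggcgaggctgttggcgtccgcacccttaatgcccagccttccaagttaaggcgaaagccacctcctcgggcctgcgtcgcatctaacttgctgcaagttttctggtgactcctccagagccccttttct

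The Epcam window held CACCTG beginning at -187, CAGGTG at -19 and CACGTG at 31, counted from the start. The Snai1 window held 1 CACCTG, at -126. No CANNTG was found in the 4 Zeb2 windows or in that of Twist1. For comparison, 72.31% of the 32851 windows in the table held CANNTG, 20.21% held CACCTG or CAGGTG, and 2.88% held those letters 2 or more times, as Epcam did.

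In the files' own build, NCBI37, Cdh1 (ENSMUSG00000000303) lies at chr8:109127251-109194146, Cdh2 (ENSMUSG00000024304) at chr18:16747386-16967755, Epcam (ENSMUSG00000045394) at chr17:88035319-88050446 and Grhl2 (ENSMUSG00000022286) at chr15:37162791-37293324. Snai1 (ENSMUSG00000042821) lies at chr2:167363695-167368314, Snai2 (ENSMUSG00000022676) at chr16:14705945-14709488, Zeb2 (ENSMUSG00000026872) at chr2:44839154-44972915 and Twist1 (ENSMUSG00000035799) at chr12:34642536-34644682. All 8 are protein-coding, and their values are sums over exons. Cdh2 and Zeb2 each overlap an annotated gene on the opposite strand, Grhl2 overlaps others, and the library kit did not mark strand. How reads shared with the partners were counted is not given, so their part in these values is not known.

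Libraries held 22442118 to 40711826 reads in genes, and every ES library (at least 32631020) was deeper than every EB library (at most 27685306), so stage and any difference in sequencing run cannot be told apart. Chromosome 8, which carries Cdh1, had a level (log2, median over its genes) of 0.378 to 0.434 in the first WT replicate of each EB stage, 3 libraries, and of -0.114 to 0.0365 in the other 13. Cdh1 results from ES to EB8 and at EB8 are therefore given with and without those 3 libraries. So is its EB4 to EB5 change in WT cells. WT ES replicate 2 also stood apart from the other WT libraries, with 4.0 normalised counts of the Y-linked gene Eif2s3y where the remaining WT libraries had 840.7 to 2248. All 8 KO libraries had 1.9 to 92.1, so Y-linked expression ran with genotype at the EB stages and its part in the differences below cannot be told apart from that of Taf4a. The chromosome X level was 0.353 to 0.561 in the second KO replicate of each stage and 0.477 in WT ES replicate 2, against -0.195 to -0.0705 in the other 11 libraries. Taf4a itself had 1591 to 1960 normalised counts in WT and 1973 to 2400 in KO libraries, so whole-gene counts do not check the genotype labels. Changes below are differences of log2(normalised count + 1) with a standard error (SE) from a limma fit over the 16124 genes tested, p-values were adjusted by Benjamini-Hochberg over all of them, and a gene is said to have been called, or to have risen or fallen, at an adjusted p under 0.05.

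In WT cells Cdh1 fell and Cdh2 rose between ES and EB8. In bulk samples, fewer cells of a type and less RNA per cell cannot be told apart. Of the 9 rows tested, Cdh2, Zeb2 and Twist1 rose and Cdh1, Epcam and Grhl2 fell, while Snai1, Snai2 and Zeb1 were not called. Over all genes, 46.8% were called in this comparison, 24% higher and 22.8% lower, to be read beside the 6 of 9. The members' median change was -0.17 against 0.01 over all genes. In KO cells 5 of the 9 were called over the same interval, with Zeb2, Twist1 and Snai2 higher and Epcam and Grhl2 lower, where 37.7% of all genes were called (19.7% higher and 18% lower). The members' median change in KO cells was 0.71, against 0.02 over all genes. Neither cadherin was among the 5 called in KO cells. With the replicate number as a block within each genotype, an alternative chosen after the data were seen, Cdh1 was called there too (-0.95, adjusted p = 0.00902). The planned fit of the compared groups alone also called it (-0.95, adjusted p = 0.00632). Centring on chromosomes, added after the data were seen, did so as well (-0.98, adjusted p = 0.0282). In all, 4 of 18 alternatives called the Cdh1 fall in KO cells. The share of higher calls among all WT calls was 51.3%, and 36.3% after upper-quartile rescaling, a setting under which the same 6 members kept their direction and their call.

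**Figure D1:**
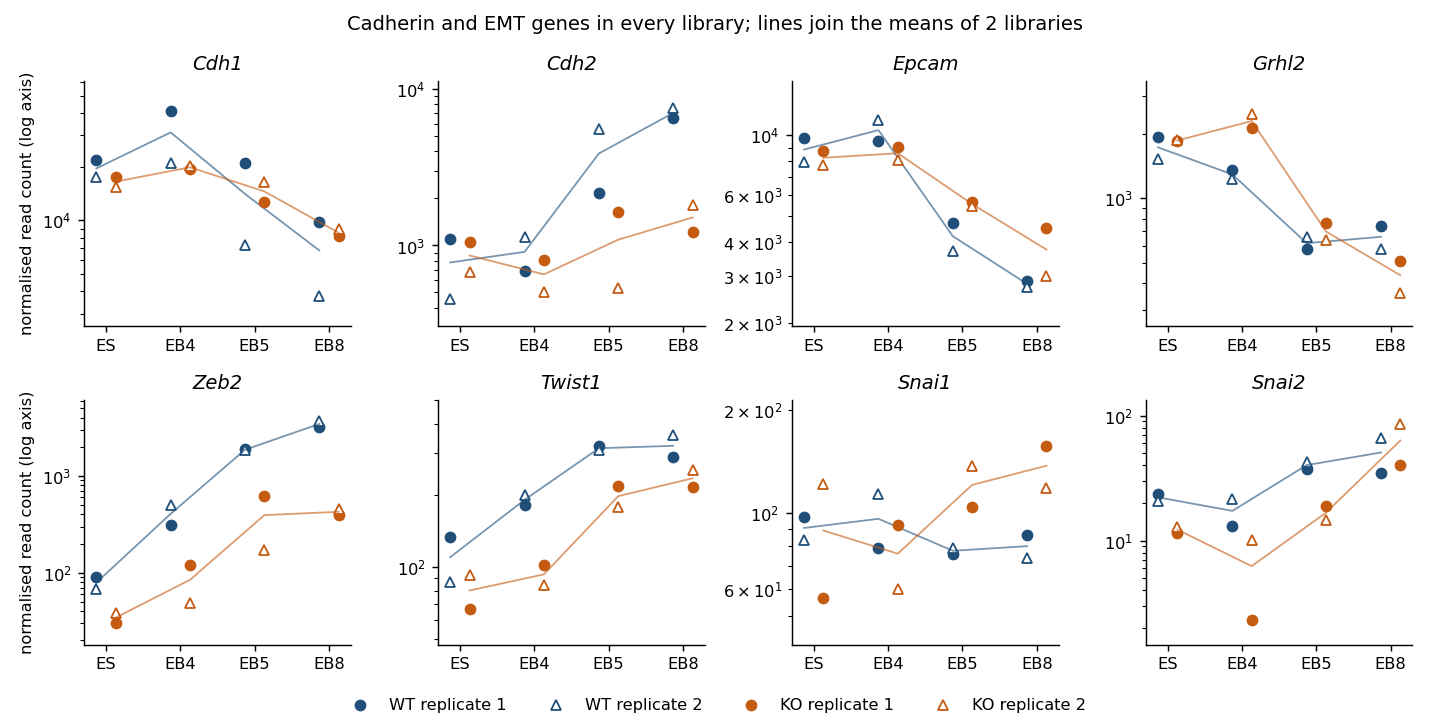
Normalised read counts (log axis) of 8 of the genes in each of the 16 libraries at ES, EB4, EB5 and EB8, with circles for replicate 1, triangles for replicate 2 and lines joining the means of 2 libraries. Zeb2 in WT libraries lies above all KO libraries of the same stage throughout, and Cdh2 in WT EB8 libraries (6570 and 7552) lies above both KO EB8 libraries (1213 and 1807).

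Cdh1 was among the most abundant transcripts of the set. Its normalised counts in WT replicates 1 and 2 were 21702 and 17426 in ES cells, 41249 and 21057 at EB4, 20887 and 7277 at EB5, and 9823 and 3749 at EB8. In KO replicates 1 and 2 they were 17594 and 15404 in ES cells, 19488 and 20226 at EB4, 12740 and 16349 at EB5, and 8145 and 8905 at EB8. WT replicate 1 was the higher WT library at every stage, by 0.97 at EB4, 1.52 at EB5 and 1.39 at EB8 on the log2 scale, where the median over the 853 tested genes of chromosome 8 was 0.51, 0.49 and 0.47. The genotypes overlapped in ES cells, both KO libraries were below both WT libraries at EB4, and at EB5 and EB8 the KO libraries fell between the WT libraries.

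Between ES and EB8, Cdh1 fell by 1.68 on the log2 scale in WT cells (SE 0.48, adjusted p = 0.0131), a 3.20-fold decrease. The call was lost without WT ES replicate 1 (adjusted p = 0.0684) or without WT EB8 replicate 2 (adjusted p = 0.151). In KO cells the change was -0.95 (SE 0.48, adjusted p = 0.141). Leaving out the 3 WT libraries with the high chromosome 8 level, a choice made after the data were seen, gave -2.38 in WT cells (adjusted p = 0.000161) and the same -0.95 in KO cells, now called at an adjusted p = 0.00323. That fit leaves WT EB4, EB5 and EB8 with 1 library each, assumed to vary like the other groups, here and wherever the 3 libraries are left out below. KO against WT, Cdh1 differed by 0.49 at EB8 (95% confidence interval -0.56 to 1.54, adjusted p = 0.505). Without those 3 libraries the difference was 1.18 (adjusted p = 0.00793), and with every gene centred on its chromosome it was 0.66 (adjusted p = 0.153). Over the alternatives tried the EB8 difference ran from -0.21, without WT EB8 replicate 2, to 1.18.

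Cdh2 rose in WT cells from ES to EB8. WT replicates 1 and 2 had 1100.4 and 456 normalised counts in ES cells, 682 and 1138 at EB4, 2152 and 5608 at EB5, and 6570 and 7552 at EB8. KO replicates 1 and 2 had 1049 and 676 in ES cells, 803 and 503 at EB4, 1643 and 535 at EB5, and 1213 and 1807 at EB8. The genotypes overlapped in ES cells and at EB4, and from EB5 on both WT libraries were above both KO libraries. The KO to WT difference at EB5 was -1.89 on the log2 scale (SE 0.58, adjusted p = 0.0875), and DESeq2 called it (-1.83, adjusted p = 0.0169). At EB5 WT replicate 1 had the lower Cdh2 and the higher Cdh1 of the WT libraries.

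The WT increase from ES to EB8 was 3.31 on the log2 scale (SE 0.58, adjusted p = 0.000659), 9.93-fold, and the KO change was 0.81 (95% confidence interval -0.45 to 2.08, adjusted p = 0.294). Without WT ES replicate 2 the WT increase was 2.68 (adjusted p = 0.00858). At EB8 Cdh2 was 4.75-fold lower in KO than in WT cells (log2 difference -2.25, SE 0.58, adjusted p = 0.0155). That call was lost on leaving out WT EB8 replicate 1 (adjusted p = 0.056), WT EB8 replicate 2 (adjusted p = 0.0841) or KO EB8 replicate 1 (adjusted p = 0.0994), with differences of -1.96 to -2.35, and without the 3 libraries of high chromosome 8 level (-2.35, adjusted p = 0.0522). The test of whether the ES to EB8 change itself differed between genotypes gave -2.50 (SE 0.82, adjusted p = 0.0843) and did not pass.

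The balance of the cadherins can be read as the ratio of Cdh1 to Cdh2 normalised counts per kilobase of exon, given here as a description. In WT replicates 1 and 2 it was 34.8 and 67.4 in ES cells, 106.7 and 32.6 at EB4, 17.1 and 2.29 at EB5, and 2.64 and 0.875 at EB8. In KO replicates 1 and 2 it was 29.6 and 40.2 in ES cells, 42.8 and 70.9 at EB4, 13.7 and 53.9 at EB5, and 11.8 and 8.69 at EB8. WT EB8 replicate 2 was the single library in which N-cadherin transcripts outnumbered those of E-cadherin per kilobase. Both KO EB8 libraries kept a ratio above both WT EB8 libraries and above WT EB5 replicate 2, and below every KO library of earlier stages.

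**Figure D2:**
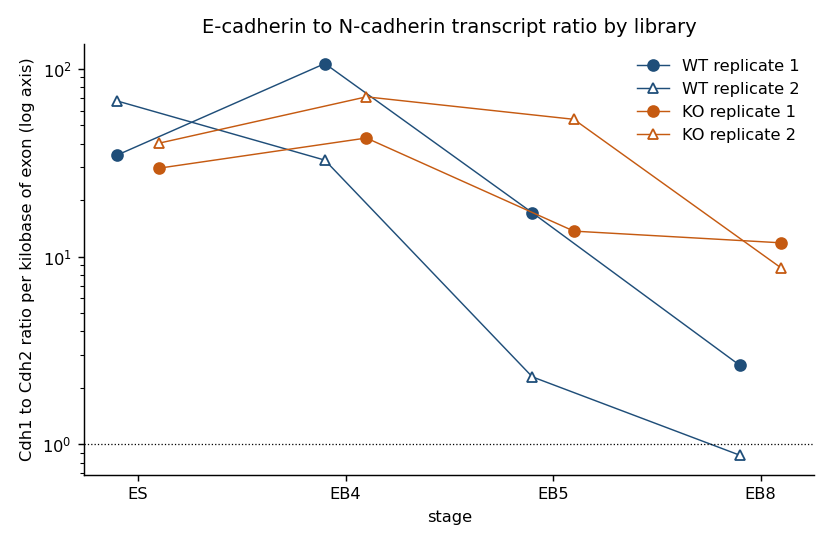
Ratio of Cdh1 to Cdh2 normalised counts per kilobase of exon (log axis) in each library at ES, EB4, EB5 and EB8, with 1 line per replicate number and a dotted line at equal levels. The WT lines drop to 2.64 and 0.875 at EB8 and the KO lines to 11.8 and 8.69.

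Epcam, the other adhesion gene, fell in both genotypes. WT replicates 1 and 2 had 9765 and 7930 normalised counts in ES cells, 9503 and 11383 at EB4, 4712 and 3717 at EB5, and 2874 and 2728 at EB8. KO replicates 1 and 2 had 8748 and 7739, then 9045 and 8093, then 5652 and 5449, and last 4521 and 2994 at the same 4 stages. The genotypes overlapped in ES cells, at EB4 both KO libraries were below both WT libraries, and at EB5 and EB8 both were above. From ES to EB8 Epcam fell by 1.65 on the log2 scale in WT cells (SE 0.20, adjusted p = 4.88e-05) and by 1.16 in KO cells (SE 0.20, adjusted p = 0.000935), and both calls held under each alternative. The KO to WT difference was 0.41 at EB5 (adjusted p = 0.271) and 0.39 at EB8 (adjusted p = 0.177), and the EB8 difference was called after upper-quartile rescaling (0.62, adjusted p = 0.0339) and without KO EB8 replicate 2 (adjusted p = 0.0426).

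Grhl2, the epithelial factor, also fell in both genotypes. WT replicates 1 and 2 had 1937 and 1518 normalised counts in ES cells, 1350.2 and 1233 at EB4, 578 and 656 at EB5, and 738 and 582 at EB8. KO replicates 1 and 2 had 1852 and 1868 in ES cells, 2123 and 2463 at EB4, 763 and 635 at EB5, and 512 and 362 at EB8. The genotypes overlapped in ES cells, at EB4 both KO libraries were above both WT libraries, at EB5 the genotypes overlapped again, and at EB8 both KO libraries were below. Grhl2 fell from ES to EB8 by 1.39 in WT (SE 0.21, adjusted p = 0.000258) and by 2.11 in KO cells (SE 0.21, adjusted p = 4.41e-05), under each alternative.

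At EB4 the KO level was 1.77-fold higher (log2 difference 0.82, SE 0.21, adjusted p = 0.0422), and at EB8 the difference was -0.61 (SE 0.21, adjusted p = 0.0573). The EB4 call was lost without any 1 of the 4 EB4 libraries (adjusted p = 0.0719 to 0.299). The EB8 difference was called by DESeq2 (adjusted p = 0.0339) and without KO EB8 replicate 1 (-0.85, adjusted p = 0.0373). The genotype difference in the ES to EB8 change was -0.72 (SE 0.30, adjusted p = 0.16).

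Zeb2 showed the widest range of the 9 genes and the lowest KO level relative to WT. WT replicates 1 and 2 had 89.2 and 68.6 normalised counts in ES cells, 308 and 505 at EB4, 1903 and 1838 at EB5, and 3182 and 3737 at EB8. KO replicates 1 and 2 had 29.9 and 38.6 in ES cells, 120.3 and 48.5 at EB4, 614 and 174 at EB5, and 391 and 461 at EB8. At each of the 4 stages both WT libraries were above both KO libraries, and KO EB8 values lay within the range of WT EB4 values.

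Zeb2 rose 43.6-fold from ES to EB8 in WT cells (log2 change 5.44, SE 0.52, adjusted p = 1.05e-05) and 12.2-fold in KO cells (3.61, SE 0.52, adjusted p = 0.00036), under each alternative. KO against WT, it was 8.10-fold lower at EB8 (-3.02, SE 0.52, adjusted p = 0.00174), again under each alternative. The difference was -2.35 at EB4 (SE 0.52, adjusted p = 0.0254) and -2.51 at EB5 (SE 0.52, adjusted p = 0.0248), while in ES cells it was -1.18 (SE 0.52, adjusted p = 0.42). The EB4 call was lost without WT EB4 replicate 1 (adjusted p = 0.057), WT EB4 replicate 2 (adjusted p = 0.125) or KO EB4 replicate 2 (adjusted p = 0.257). The EB5 call was lost without WT EB5 replicate 1 (adjusted p = 0.09), WT EB5 replicate 2 (adjusted p = 0.13) or KO EB5 replicate 2 (adjusted p = 0.278). Without the 3 libraries of high chromosome 8 level the adjusted p was 0.101 at EB4 and 0.123 at EB5. The genotype difference in the ES to EB8 change was -1.84 (SE 0.74, adjusted p = 0.149), which did not pass.

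Twist1, a basic helix-loop-helix factor of mesoderm and neural crest, was present at modest levels and rose in both genotypes. WT replicates 1 and 2 had 134 and 86.9 normalised counts in ES cells, 183 and 200.5 at EB4, 321 and 309.7 at EB5, and 289 and 357 at EB8. KO replicates 1 and 2 had 67.2 and 92.9, then 103 and 84.2, then 219 and 178, and last 216 and 256 at the same stages. The genotypes overlapped in ES cells, and from EB4 on both WT libraries were above both KO libraries. The ES to EB8 increase was 1.56 in WT (SE 0.30, adjusted p = 0.00117) and 1.56 in KO cells (SE 0.30, adjusted p = 0.00184), and their difference was -0.00403 with a 95% confidence interval from -0.92 to 0.92. No KO to WT difference in Twist1 was called, the nearest being -1.03 at EB4 (adjusted p = 0.0619), which DESeq2 called (adjusted p = 0.0101).

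Snai1 stayed within a narrow band. Its normalised counts were 74.1 to 114 over the 8 WT libraries and 56.5 to 157 over the 8 KO libraries, and no comparison called it. At EB5 and EB8 both KO libraries (104 and 138, then 157 and 118) were above both WT libraries (76.2 and 79.1, then 86.1 and 74.1). The EB8 difference of 0.76 had a 95% confidence interval from -0.12 to 1.65 (adjusted p = 0.201).

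Snai2 was rarer still. WT replicates 1 and 2 had 23.7 and 20.7 normalised counts in ES cells, 13.2 and 21.4 at EB4, 37.6 and 42.8 at EB5, and 34.7 and 66.7 at EB8. KO replicates 1 and 2 had 11.6 and 12.9 in ES cells, 2.34 and 10.2 at EB4, 18.96 and 14.5 at EB5, and 40.1 and 86.3 at EB8. WT libraries were above KO libraries in ES cells, at EB4 and at EB5, and the genotypes overlapped at EB8. Snai2 rose from ES to EB8 by 2.18 in KO cells (SE 0.62, adjusted p = 0.0161). That call was lost without KO ES replicate 1 (adjusted p = 0.079), KO ES replicate 2 (adjusted p = 0.0623) or KO EB8 replicate 2 (adjusted p = 0.131). In WT cells the change was 1.09 (adjusted p = 0.17), and the difference between genotypes in this change was not called (adjusted p = 0.479).

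Zeb1 could not be measured with confidence. One row with its name (ENSMUSG00000024238, chr18:5591858-5775465) was at 0 normalised counts in 14 libraries and at 1.0 and 1.1 in the other 2. The second row of that name (ENSMUSG00000093585) ranged from 6.6 to 27.7 and was not called in any comparison. How reads shared by overlapping gene models were counted is not given in the sources used here, so these values are no measure of total Zeb1 transcript.

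Per kilobase of exon, the order of mean levels changed with stage. In WT ES cells it ran from Epcam (4337) and Cdh1 (4277), which did not differ beyond their spread, through Grhl2 (314), Cdh2 (96.5), Twist1 (68.3), Snai1 (55.9) and Snai2 (10.9) to Zeb2 (5.13). At WT EB8 it was Cdh1 (1484), Epcam (1373), Cdh2 (875), Zeb2 (225), Twist1 (199.7), Grhl2 (119.9), Snai1 (49.4) and Snai2 (25.0). At KO EB8 Cdh1 (1864) and Epcam (1842) led, followed by Cdh2 (187), Twist1 (146), Snai1 (85.0), Grhl2 (79.4), Snai2 (31.1) and Zeb2 (27.7). At EB8 the ranges over libraries overlapped between Cdh1 and Epcam in both genotypes, between Cdh1 and Cdh2 and between Zeb2 and Twist1 in WT cells, and between Cdh2 and Twist1, Snai1 and Grhl2, and Snai2 and Zeb2 in KO cells. In WT ES cells the ranges of Cdh2, Twist1 and Snai1 overlapped one another.

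**Figure D3:**
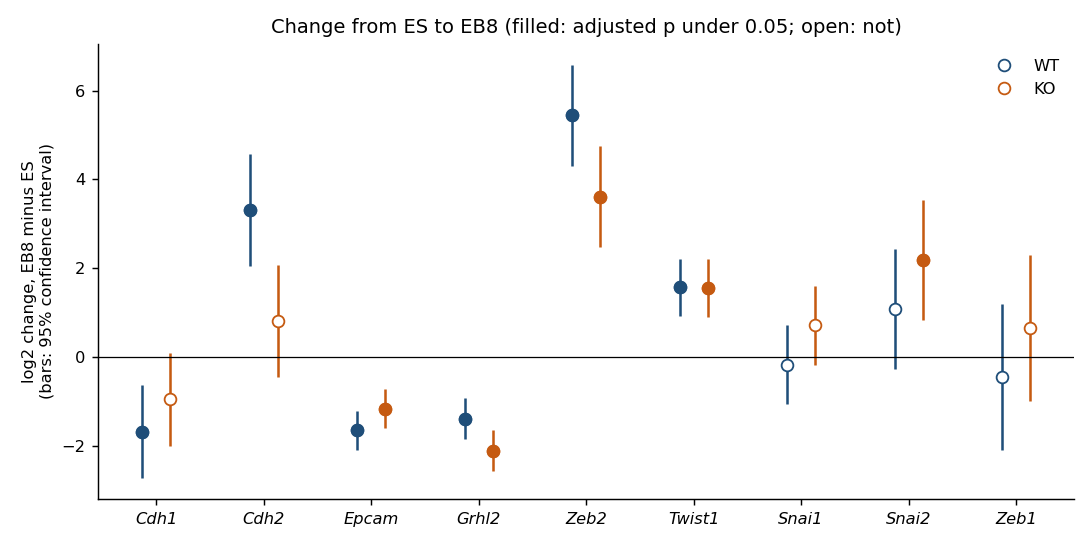
Log2 change of normalised counts from ES to EB8 for the 9 rows tested in WT and KO cells, with 95% confidence intervals from the limma fit and filled points where the adjusted p was under 0.05. Cdh2 is at 3.31 in WT and 0.81 in KO cells, and Zeb2 at 5.44 and 3.61.

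Single steps between stages held fewer calls than the whole course. From ES to EB4, 1 of the 9 was called in WT cells, Zeb2 (2.32, SE 0.52, adjusted p = 0.0123), where 16.5% of all genes were called. That call was lost without WT ES replicate 2 (adjusted p = 0.0565) or WT EB4 replicate 2 (adjusted p = 0.0858). From EB4 to EB5, 3 of the 9 were called against 3.73% of all genes: Epcam fell by 1.31 (SE 0.20, adjusted p = 0.00259), Grhl2 fell by 1.07 (SE 0.21, adjusted p = 0.0146) and Zeb2 rose by 2.24 (SE 0.52, adjusted p = 0.0341). Zeb2 lost this call without any 1 of the 4 libraries (adjusted p = 0.0541 to 0.256), and Grhl2 without any but WT EB4 replicate 2 (adjusted p = 0.0729 to 0.115). Cdh1 changed by -1.26 (adjusted p = 0.225) and Cdh2 by 1.98 (adjusted p = 0.094) in that step. With every gene centred on its chromosome the Cdh1 change was -1.30 (adjusted p = 0.0411). Without the 3 libraries of high chromosome 8 level it was -1.53. From EB5 to EB8 limma called 0 of the 9 in WT cells, where 10.4% of all genes were called. In that step 1 had an unadjusted p under 0.05, edgeR called 0 and DESeq2 called 1, Epcam (-0.59, adjusted p = 0.0497). With the block within each genotype, Cdh1 was called in both steps (-1.26, adjusted p = 0.0123, and -1.02, adjusted p = 0.0173) and Epcam in the later one (adjusted p = 0.0455).

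In KO cells the steps held fewer calls. From ES to EB4 limma called 0 of the 9 (3.5% of all genes), with 1 at an unadjusted p under 0.05 and 0 by edgeR and by DESeq2. From EB4 to EB5 Grhl2 alone was called, falling by 1.71 (SE 0.21, adjusted p = 0.000963), where 2.51% of all genes were called, and Zeb2 changed by 2.08 (adjusted p = 0.0605, and 0.036 with the block within each genotype). From EB5 to EB8 limma called 0 of the 9 (0.738% of all genes), with 3 at an unadjusted p under 0.05 and 0 by edgeR and by DESeq2.

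KO against WT, limma called 0 of the 9 in ES cells, with 1 at an unadjusted p under 0.05 and 0 by edgeR and by DESeq2, and it called 0% of all genes there (1846 at an unadjusted p under 0.05, 0 by edgeR, and 100 higher and 369 lower by DESeq2). It called 2 at EB4 (Grhl2 higher and Zeb2 lower, where 6.12% of all genes were called), 1 at EB5 (Zeb2 lower, 4.34% of all genes) and 2 at EB8 (Cdh2 and Zeb2 lower). At EB8 22.9% of all genes were called, 10.4% higher and 12.5% lower, so 2 of 9 was near the background share. Higher calls made up 45.4% of all EB8 calls and 64.2% after upper-quartile rescaling, under which Cdh2 and Zeb2 stayed called. The median KO to WT difference of the members at EB8 was 0.29 against -0.03 over all genes.

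Tests of whether the change differed between genotypes called 0 of the 9 for ES to EB8, where 7.29% of all genes were called, with 3 at an unadjusted p under 0.05, 0 by edgeR and 1 by DESeq2 (Cdh2, -2.37, adjusted p = 0.0257). For EB5 to EB8 they called 0 of the 9, with 1 at an unadjusted p under 0.05 and 0 by edgeR and by DESeq2, where 0.781% of all genes were called. For Cdh1 the difference in the ES to EB8 change was 0.73 (adjusted p = 0.548). Without the 3 libraries of high chromosome 8 level, which leaves 1 WT EB8 library, it was 1.42. By the limma fit of all 16 libraries, an effect seen in WT and not in KO cells is therefore not shown to differ for any of these genes.

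**Figure D4:**
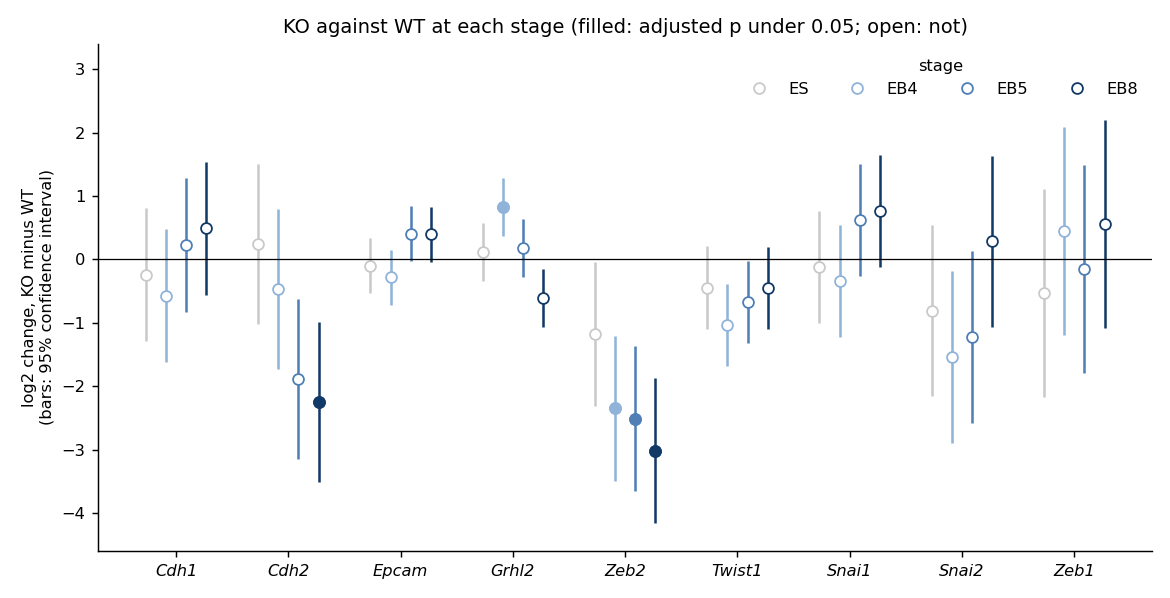
Log2 difference of normalised counts, KO minus WT, for the 9 rows tested at ES, EB4, EB5 and EB8, with 95% confidence intervals from the limma fit and filled points where the adjusted p was under 0.05. Zeb2 lies at -1.18, -2.35, -2.51 and -3.02 in stage order, and Cdh1 lies between -0.57 and 0.49.

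Several marker lists of other cell types differed between genotypes at EB8. Over all genes there, 10.4% were called higher and 12.5% lower in KO cells, to be read beside the marker counts below. At EB8 the summed normalised counts of 6 neural progenitor markers were 27617 to 30311 in WT and 4909 to 4989 in KO libraries, and 5 of the 6 were called lower in KO cells. Those of 8 pluripotency markers were 1799.9 to 2162 in WT and 31354 to 34830 in KO libraries, with 7 of the 8 called higher. The sums of 4 neuronal markers were 13824 to 17755 in WT and 1187 to 1448 in KO libraries. In ES libraries 10 fibroblast markers, which feeder cells express, summed to 1093 to 2755 in WT and 226 to 546 in KO libraries, with at most 1 marker at 0. At EB8 they summed to 2433 to 3175 in WT and 1494 to 3839 in KO libraries, with at most 2 at 0, and the median difference of the 8 tested was -0.20. Neural crest cells, which also express Snai2, Twist1 and Zeb2, have 5 listed markers, whose EB8 sums were 2385 to 2995 in WT and 223 to 555 in KO libraries, with 3 called lower and 1 higher. The sums of 5 primitive streak and mesoderm markers were 51.5 to 72.0 in WT and 435 to 523 in KO libraries, with 1 of the 4 tested called higher, and those of 7 endoderm markers were 1550 to 1871 in WT and 610.4 to 674 in KO libraries, with 2 of the 4 tested called lower. The part of these cell types in the levels of Cdh2, Zeb2, Twist1 and Cdh1 was not tested.

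Of 15 other classical and related cadherins tested at EB8, 6 were called lower and 1 higher in KO cells, where 12.5% of all genes were called lower and 10.4% higher, with a median difference of -1.03. Cdh8, a cadherin of neural tissue, reached 1913 and 892 normalised counts in the WT EB8 libraries and 24.3 and 45.8 in those of KO cells, a difference of -5.25 (SE 0.62, adjusted p = 0.000196). Cdh22 differed by -3.85 (adjusted p = 0.0014) and Cdh13, a cadherin anchored by a lipid tail, by -3.35 (adjusted p = 0.00181). The 1 called higher, named after its values were seen, was Cdh15 (2.86, adjusted p = 0.00424), known as M-cadherin of muscle. Cdh8, Cdh13 and Cdh15 lie on chromosome 8. Without the 3 WT libraries with the high level, 4 were called lower and 1 higher, and Cdh8 differed by -4.70 (adjusted p = 0.00707).

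Among 6 catenins tested, which link cadherins to actin, Ctnna2 and Ctnnd2, the forms typical of neurons, were called lower in KO EB8 cells (-3.91, adjusted p = 0.000704, and -2.39, adjusted p = 0.00141). Ctnna1, the alpha-catenin of epithelia, was higher (0.62, adjusted p = 0.0249), with 12432 and 11709 normalised counts in WT against 19198 and 17825 in KO libraries. Without the 3 WT libraries the Ctnna1 difference was 0.66 (adjusted p = 0.069). Along the course, of genes named after their values were seen, Jup, which encodes plakoglobin, fell from ES to EB8 in both genotypes (-1.93, adjusted p = 0.000231 in WT, and -1.65, adjusted p = 0.00109 in KO), and Ctnnb1 rose in both (0.53, adjusted p = 0.00369 in WT, and 0.49, adjusted p = 0.00803 in KO).

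Of 7 epithelial transcription factors other than Grhl2, 2 were called at EB4, 3 at EB5 and 4 at EB8, each of them higher in KO cells, where 6.12%, 4.34% and 22.9% of all genes were called in either direction. Elf3, an epithelial ETS factor, was at 343 and 427 normalised counts in the WT EB8 libraries and at 3871 and 2743 in the KO ones (3.09, SE 0.46, adjusted p = 0.000686). Grhl3 gave 94.5 and 157 for WT against 843 and 868 for KO libraries (2.80, SE 0.29, adjusted p = 9.18e-05). Grhl1 gave 83.0 and 84.7 for WT against 561 and 339 for KO libraries (2.37, SE 0.31, adjusted p = 0.000351). The fourth, named after its values were seen, was Klf5 (1.12, adjusted p = 0.0132). Without the 3 WT libraries 3 of the 7 were called, Elf3, Grhl3 and Grhl1. Grhl2, of the same Grainyhead-like family, stood at -0.61 at EB8 and was not called. From ES to EB8 6 of the 7 factors fell and 1 rose in WT cells, while 2 fell and 1 rose in KO cells, where 46.8% and 37.7% of all genes were called; after their values were seen, the riser in both was Elf5 and the fallers in KO cells were Klf5 and Ovol2.

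Of 25 epithelial junction and protease genes tested, 3 were called in KO EB8 cells, all higher, with a median difference of 0.11; 10.4% of all genes were called higher there, so this share is near the background. Among them were Cldn4, a claudin of tight junctions (1.19, adjusted p = 0.0209), and St14, the protease matriptase (0.72, adjusted p = 0.0208). Without the 3 WT libraries neither Cldn4 (adjusted p = 0.0918) nor St14 (adjusted p = 0.14) was called. At EB4 the direction was the opposite, with 3 of the 25 called, all lower in KO cells, and a median difference of -0.916. In either direction 6.12% of all genes were called at EB4. At EB5 0 of the 25 were called, with a median difference of -0.257. From ES to EB8 9 of the 25 were called in WT cells, all lower, and in KO cells 4 fell and 7 rose. Over all genes 46.8% were called in WT cells, 22.8% lower. In KO cells 37.7% of all genes were called, 18% lower and 19.7% higher. The risers in KO cells included, named after their values were seen, Dsp (1.97, adjusted p = 0.00477) and Krt18 (2.10, adjusted p = 0.0134). In WT cells, where neither was called, Dsp went from 3228 and 2243 normalised counts in ES cells to 7676 and 4252 at EB8. Krt18 went from 5568 and 2726 to 8925 and 5120 there. In KO cells both started lower, Dsp at 1508 and 870 and Krt18 at 2043 and 634. At EB8 the KO libraries had 5450.5 and 3676 for Dsp and 8366 and 2863 for Krt18.

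Of 9 other factors linked to the mesenchymal transition tested at EB8, 1 was called higher and 1 lower in KO cells, near the 22.9% of all genes called. Snai3, another Snail protein, whose gene lies on chromosome 8, was at 25.2 and 11.6 normalised counts in the WT libraries and at 152 and 79.9 in the KO ones (2.61, SE 0.60, adjusted p = 0.00847). Tcf4, a partner of basic helix-loop-helix factors, gave 4541 and 4984 for WT against 1292 and 1734 for KO libraries (-1.67, SE 0.23, adjusted p = 0.000425). Without the 3 WT libraries both were still called (3.14, adjusted p = 0.0133, and -1.73, adjusted p = 0.00582). Named after its values were seen, Foxc2 rose in both genotypes from ES to EB8 (7.17, adjusted p = 3.9e-06 in WT, and 5.89, adjusted p = 4.19e-05 in KO). Its gene also lies on chromosome 8. ES libraries had only 3.6 and 2.4 normalised counts of Foxc2 in WT and 1.7 and 2.9 in KO cells, so the size of these rises rests on few reads.

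Of 14 mesenchymal genes tested, 3 were called higher and 2 lower in KO EB8 cells, where 10.4% and 12.5% of all genes were, with a median difference of -0.01. Itgb3, an integrin subunit, was higher by 2.62 (adjusted p = 0.0267) and Mmp9, a matrix protease, by 2.51 (adjusted p = 0.00908), and Acta2, smooth muscle actin, was lower by 2.91 on the log2 scale (-2.91, adjusted p = 0.0434). None of these 3 was called without the 3 WT libraries (adjusted p = 0.155, 0.0816 and 0.146). The other 2, named after their values were seen, were Itga5 (0.94, adjusted p = 0.018) and Vim. Vim, the intermediate filament of mesenchyme and of neural progenitors, stood at 20563 and 19598 normalised counts in the WT EB8 libraries and at 3909 and 4443 in the KO ones (-2.27, SE 0.26, adjusted p = 0.000176).

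Across the 8 group means, the genes nearest in pattern to each cadherin were found by the mean absolute difference of centred log2 values. For Cdh1 they were Gm13369 (0.145), Deptor (0.157), Epcam (0.161), Ctgf (0.161) and Rasd2 (0.174), Epcam itself being a member, out of 16124 genes. For Cdh2 they were Irx2 (0.252), Vash1 (0.254), Fam123a (0.282), Reep1 (0.284) and Smug1 (0.287). These distances rest on 8 points and carry no test.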

How the data were processed

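The deposited table held normalised read counts per gene (a signal scaled by the authors with DESeq2 size factors, from HTSeq counts of TopHat2 alignments to mm9). The authors' notes name TopHat2 2.0.10, HTSeq 0.5.4p3, DESeq2 1.0.19 and CASAVA 1.7 and 1.8. Strand use, counting mode and the annotation release are not given in the sources used here. Library steps of 0.715 to 1.28 normalised counts per read gave whole reads for 100% of values (tolerance 0.05), with 22442118 to 40711826 reads per library.

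Genes averaging 10 or more normalised counts (16124 of 27807) were tested across all genes on log2(value + 1) with limma 3.58.1 (R 4.3.3, empirical Bayes with trend, 8 group means), whose threshold was a Benjamini-Hochberg adjusted p of 0.05. The fit had 8 residual degrees of freedom and 12.3 in all. Fold changes on this scale understate those of low genes. Nothing in the labels says how far the 2 libraries of a group were separate cultures, so p-values measure the spread between these libraries. Alternatives were other pseudocounts, filters and scalings, fits of the compared groups alone, a replicate block, edgeR 4.0.16 and DESeq2 1.42.0 on recovered reads and the omission of each library. Chromosome centring, the joint omission of 3 libraries, a block with exchanged numbers and a block within each genotype were added after the data were seen. On the recovered reads edgeR called 1622 genes higher and 1924 lower between genotypes at EB8, where limma called 1677 and 2020. The fit was tested on simulated data.

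Named genes were all members, the 3 largest called KO to WT differences at EB8 in each pathway list, and the 5 genes nearest in pattern to each cadherin. One gene that this rule names is not reported here. The members and all gene lists were chosen with earlier results of these data known. Coordinates and exon lengths came from GENCODE M1 on NCBI37, and start-site windows from RefSeq on GRCm38.p6. All columns were mapped to samples. Sox1 and Map2, listed as markers, were not matched.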

Additional observations from a re-analysis of the deposited data

How the results depend on the processing

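Over all alternatives, no member reversed direction against a called value, and of 2276 member values 2194 kept their side of the threshold, 44 lost a call and 38 gained one. Counts of members called moved in 42 cases and not in 214. KO against WT at EB4 (2 called), the count was 1 with no filter and with quantile normalisation, 0 with only the groups compared and 0 without the 3 libraries of high chromosome 8 level, and 0 to 1 with each library left out. At EB5 (1 called) it was 0 with only the groups compared, 2 with DESeq2 and 0 without those 3 libraries, and 0 to 2 with each library left out. At EB8 (2 called) it was 1 to 3 with each library left out. From ES to EB4 in WT cells (1 called) it was 0 with only the groups compared, 2 with DESeq2 and 0 without the 3 libraries, and 0 to 2 with each library left out. From EB4 to EB5 in WT cells (3 called) it was 1 with only the groups compared and 1 to 2 with each library left out. From EB5 to EB8 in WT cells (0 called) it was 1 with upper-quartile rescaling, 1 with only the groups compared, 1 with DESeq2, 2 with the block within each genotype and 0 to 1 with each library left out. From EB4 to EB5 in KO cells (1 called) it was 2 with upper-quartile rescaling, 3 with DESeq2, 2 with the exchanged block, 2 with the block within each genotype and 1 to 2 with each library left out. For the genotype difference in the ES to EB8 change (0 called) it was 2 with only the groups compared, 1 with DESeq2, 1 without the 3 libraries and 0 to 1 with each library left out. The cause was not tested; fits of the compared groups alone and those without libraries hold fewer samples.

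Upper-quartile rescaling moved the median of all genes by -0.291 to 0.299 (log2), and the share of higher calls from 50% to 62.2% for KO against WT at EB5, from 54.3% to 32.2% for ES to EB4 in WT cells, from 71.6% to 39% for ES to EB4 and from 72.3% to 84.4% for EB4 to EB5 in KO cells, and from 52.8% to 72.7% for the genotype difference in the ES to EB8 change. Quantile normalisation moved it from 12.7% to 25.6% for the genotype difference in the EB5 to EB8 change. Between genotypes at EB4, DESeq2 called 904 genes higher and 1173 lower, limma 443 and 543, and edgeR 363 and 448.

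Same-numbered WT and KO libraries deviated together in ES cells (correlation 0.335) but not at EB4, EB5 or EB8 (-0.0575, -0.209 and -0.133), so the numbers were not taken as pairs between genotypes. Within a genotype, same-numbered libraries deviated together across the WT EB stages (0.523 to 0.605) and across all KO stages (0.233 to 0.422), but not between WT ES and the WT EB stages (-0.179 to -0.048), and the labels do not say what a number marks. Stage comparisons as reported ignore this. A replicate block within each genotype, added after the data were seen, gave 1, 4, 2 and 6 members called in WT cells (ES to EB4, EB4 to EB5, EB5 to EB8, ES to EB8), 0, 2, 0 and 6 in KO cells, and 0 for both differences between genotypes. A replicate block over both genotypes gave 0 members called in ES cells, 2 at EB4, 1 at EB5 and 3 at EB8 between genotypes, Grhl2 at EB8 being the gain (adjusted p = 0.0442), and with KO numbers exchanged 0, 2, 1 and 2.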

Other observations

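Cdh3, which encodes P-cadherin, lies beside Cdh1 on chromosome 8 (chr8:109034791-109080808, NCBI37) and was also higher in WT replicate 1 than in replicate 2 at the EB stages. Cdh3 had 2920 and 1831 normalised counts in WT replicates 1 and 2 at EB4, 1544 and 571 at EB5, and 1511 and 791 at EB8, a difference of 0.67, 1.43 and 0.93 on the log2 scale. In ES cells the order was the opposite, with 1123 and 1783 normalised counts. Among the 853 tested genes of chromosome 8, 146 at EB4, 68 at EB5 and 62 at EB8 differed between the WT replicates at least as far as Cdh1 did in the same direction, Cdh1 included. For Cdh3 these counts were 306, 81 and 134, and its EB4 difference was near the chromosome's median of 0.514. At EB8 the middle of that distribution was 0.474, and its 90th percentile was 1.10.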
